A study of Mus musculus with 60 samples.

Results

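Hepatokines are proteins that the liver secretes into the blood. The 9 genes described here encode fibroblast growth factor 21 (Fgf21), the angiopoietin-like proteins Angptl4 and Angptl8, adropin (Enho), the insulin-like growth factor binding proteins Igfbp1 and Igfbp2, growth differentiation factor 15 (Gdf15), fetuin-B (Fetub) and fetuin-A (Ahsg). They were taken by symbol, 1 Ensembl gene ID each, from the 54232 gene IDs of the deposited raw count table, and their levels were followed in all 12 groups of tissue, diet and NaKtide. All are protein-coding genes in GRCm38 with the GENCODE M21 annotation. Fgf21 (ENSMUSG00000030827) lies on the minus strand at chr7:45613886-45615490, Igfbp1 on the plus strand at chr11:7197782-7202546, and Ahsg and Fetub are neighbours on the plus strand of chromosome 16, at chr16:22891277-22899449 and chr16:22918334-22939778.

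Fgf21 is a hormone of fasting, nutrient stress and sugar excess that signals through FGF receptors with the co-receptor beta-klotho. Gdf15 is a stress-induced hormone that lowers food intake through its brainstem receptor Gfral with the co-receptor Ret. Angptl4 and Angptl8 take part in the control of lipoprotein lipase, the enzyme that releases fatty acids from circulating triglycerides. Igfbp1 and Igfbp2 bind insulin-like growth factors in blood, and insulin represses Igfbp1 transcription. Ahsg and Fetub are cystatin-family glycoproteins made in large amounts by hepatocytes, and adropin is a small secreted peptide.

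The mice had 12 weeks of either a Western diet or a control chow. The Western diet held 42% fat, with carbohydrate at 42.7% and protein at 15.2%. The chow held 11% fat, with carbohydrate at 62% and protein at 27.0%. On each diet 1 group had NaKtide and the other had none. NaKtide inhibits signalling of the Na,K-ATPase through the kinase Src, and here it came from a transgene switched on by doxycycline at 300 mg/kg in the food of transgenic mice. Liver, visceral fat and subcutaneous fat each gave 4 groups of 5 libraries: Western diet with NaKtide, Western diet without, control diet with NaKtide and control diet without. The labels do not give the promoter of the transgene, strain, age or sex, whether mice without NaKtide carried the transgene or ate doxycycline, or whether the tissues come from the same mice. The series title speaks of the adipocyte. Because no gene ID stands for the transgene, the data hold no direct check of the NaKtide labels.

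The promoters of Fgf21, Angptl8 and Igfbp1 are shown because they carry short elements of regulators that diet and insulin act on. The set of RefSeq promoters used here held those of 7 of the 9 genes (10 start sites, GRCm38.p6), not those of Angptl4 and Enho. Each stretch gives the 250 bases before the transcription start, 5′ to 3′ on the gene's own strand, with motif matches in capitals. Fgf21 (chr7:45615491-45615740, minus strand) holds an ATF4 and C/EBP composite element, ATTGCATCA, and an E-box, CACGTG, the site of ChREBP and other basic helix-loop-helix factors. Angptl8 (chr9:21835260-21835509, plus strand) holds the same composite element read on the other strand, TGATGCAAT. Igfbp1 (chr11:7197537-7197786, plus strand) holds CAAAACAA, the insulin response element bound by FoxO1.
Fgf21: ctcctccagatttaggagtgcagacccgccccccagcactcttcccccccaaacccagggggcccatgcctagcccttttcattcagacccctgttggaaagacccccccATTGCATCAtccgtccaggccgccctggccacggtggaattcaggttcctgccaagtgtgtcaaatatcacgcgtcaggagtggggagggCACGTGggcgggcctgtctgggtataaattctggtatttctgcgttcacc
Angptl8: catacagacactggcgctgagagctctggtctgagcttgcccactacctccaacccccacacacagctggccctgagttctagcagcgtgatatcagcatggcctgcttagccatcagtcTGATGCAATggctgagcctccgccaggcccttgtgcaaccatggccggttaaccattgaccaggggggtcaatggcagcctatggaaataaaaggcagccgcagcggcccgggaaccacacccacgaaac
Igfbp1: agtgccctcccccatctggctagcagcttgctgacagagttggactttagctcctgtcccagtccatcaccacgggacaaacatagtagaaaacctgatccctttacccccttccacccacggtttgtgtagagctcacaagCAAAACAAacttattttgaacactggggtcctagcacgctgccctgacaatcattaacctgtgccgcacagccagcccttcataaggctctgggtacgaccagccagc
The composite element lies 140 to 132 bases before the start of Fgf21 and 130 to 122 bases before that of Angptl8. Searched on both strands, TGATGCAAT was in 55 of 32851 mouse promoters of this length, 0.167% of them. CACGTG, which reads the same on both strands, was in 1978 (6.02%): in Fgf21 50 to 45 bases before the start, in Igfbp2 142 to 137 bases before, and in the second of the Gdf15 start sites 83 to 78 bases before. CAAAACAA was in 727 (2.21%), and in Igfbp1 it lies 108 to 101 bases before the start. The DR1 element of PPAR and RXR, AGGTCA repeated after any 1 base, was in 11 promoters (0.0335%) and in none of the 10 searched here. The matches do not overlap one another. Such a match is only a match of letters.

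Libraries held 3.18 to 9.78 M counts (3.18 to 7.16 M in liver). Levels within a tissue are CPM, counts relative to library size scaled by TMM, given per library or as mean ± SD with n = 5. Log2 fold changes are given ± standard error, and a gene is called at a Benjamini-Hochberg adjusted p under 0.05 in edgeR's quasi-likelihood test over all genes of the tissue. These p-values measure the spread between the libraries. All 9 genes had enough counts to be tested in liver, 8 in visceral fat (not Igfbp1) and 7 in subcutaneous fat (not Igfbp1 or Fetub). In bulk tissue, fewer cells of a type and less RNA per cell cannot be told apart. Counting is not stated to use the strand, and Angptl8, Enho and Ahsg overlap genes on the opposite strand (Dock6; Dnaic1 and Gm12406; Gm30505), so their counts are less certain.

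Several libraries stand apart. The liver marker Alb was at 12520 to 20470 CPM in liver, and there the adipocyte markers Adipoq and Plin1 stayed at 0 to 5.24 and 0 to 3.30 CPM. Control-diet livers 2 and 4 without NaKtide held 284.6 and 647.6 CPM summed over 10 skeletal muscle genes. In visceral fat, 6 libraries held at least 1000 CPM of 10 epididymis and testis genes: Western diet with NaKtide 2 and 5, control diet with NaKtide 1 and control diet without NaKtide 3, 4 and 5. Visceral fat also grouped against its labels. Between the libraries labelled Western diet with NaKtide and those labelled control diet without NaKtide, 0 of 17235 genes were called, and between Western diet without NaKtide and control diet with NaKtide, 2 were (0.0116%), while Western against control diet without NaKtide gave 4287. Summed over 8 macrophage genes, visceral libraries held 420 to 1384 CPM with the label Western diet with NaKtide, 1720 to 3750 with Western diet alone, 1961 to 2822 with control diet with NaKtide and 179 to 705 with control diet alone. Whether labels, tissue content or treatment account for this was not tested, so visceral results below are those of libraries so labelled.

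In liver, the Western diet without NaKtide went with more Fgf21 and Igfbp1 transcript and with less Enho, Igfbp2 and Fetub than the control diet. Of the 9 genes, 2 were called higher and 3 lower, where 4.75% of the 12991 genes tested in liver were higher and 3.69% lower (8.44% called). The other 4, Angptl4, Angptl8, Gdf15 and Ahsg, were not. The median log2 fold change of the 9 genes was -0.31, against 0.03 for all genes tested.

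Fgf21 was at 15.8, 2.80, 2.34, 1.18 and 3.69 CPM in the 5 Western-diet livers without NaKtide, against 0.713, 0.350, 0, 0 and 0.782 CPM in the control-diet livers without NaKtide. Every Western-diet liver lay above every control-diet liver, and the 5 control-diet livers together held 9 Fgf21 counts. The first Western-diet library alone carried 93 counts and lay far above the rest of its group. With it the log2 fold change was 3.65 ± 0.76 (adjusted p = 0.00421), and without it 2.60 ± 0.60 (adjusted p = 0.0112). Fgf21 was called in all 17 alternative analyses that gave a value, with adjusted p from 2.88e-05 to 0.0475. The fit of only the groups compared gave no value, as Fgf21 had too few counts there to be tested. In the model of all liver groups, its counts in livers with NaKtide made it testable.

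Igfbp1 was at 11.05, 9.22, 13.85, 30.3 and 21.75 CPM in Western-diet livers without NaKtide, against 4.75, 1.92, 1.58, 2.17 and 2.54 CPM in control-diet livers without NaKtide. The groups did not overlap. Igfbp1 rose by 2.72 ± 0.50 on the log2 scale, with means of 17.2 ± 8.7 CPM on Western diet and 2.59 ± 1.26 CPM on control diet (adjusted p = 0.00167), and it was called in 18 of 18 alternatives (adjusted p 1.05e-05 to 0.0275). Igfbp2, the far more abundant of the pair, went the other way. Its levels were 239.3, 433.6, 346.1, 345.2 and 378.4 CPM on Western diet and 829.8, 479.0, 775.2, 863.7 and 1167 CPM on control diet, again without overlap. Igfbp2 fell by 1.24 on the log2 scale (SE 0.28, adjusted p = 0.00845) and was called in 18 of 18 alternatives (adjusted p 0.000486 to 0.0301).

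Enho was at 0.510, 0.329, 0.360, 6.43 and 0.777 CPM in Western-diet livers without NaKtide and at 8.08, 14.2, 20.55, 8.88 and 16.03 CPM in control-diet livers without NaKtide. Western-diet liver 4 came nearest to the control range, though below it. That library also had the lowest adipocyte-list sum of its group, 24.5 CPM summed over 8 genes where the other 4 held 92.1 to 217 CPM, near the 22.8 to 43.2 CPM of control-diet livers. Adipoq and Plin1 reached at most 5.24 and 3.30 CPM in liver, so other listed genes make up most of these sums. The log2 fold change of Enho was -2.97 ± 0.77 with Western-diet liver 4 (adjusted p = 0.0191) and -4.73 ± 0.86 without that liver (adjusted p = 0.00144). The call was lost without Western-diet liver 2 (adjusted p = 0.0521) or 3 (0.0524), in a range of 4e-07 to 0.0524 over 18 alternatives.

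The fetuins differed less. Fetub averaged 630.6 ± 89.2 CPM on Western diet and 992.2 ± 141.8 CPM on control diet without NaKtide, with no overlap between groups, and fell by 0.65 on the log2 scale (SE 0.19, adjusted p = 0.0383). It stayed called in 7 of 18 alternatives (adjusted p 0.0106 to 0.0931) and lost the call when any of 7 single libraries was left out: Western-diet liver 1, 2, 3 or 4, or control-diet liver 3, 4 or 5. Ahsg averaged 3475 ± 874.5 CPM on Western diet and 4312 ± 959.7 CPM on control diet, a difference of -0.31 ± 0.20 on the log2 scale that missed the threshold (adjusted p = 0.365).

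Of the genes that missed the threshold, Angptl4 averaged 50.9 CPM on Western diet and 83.8 CPM on control diet (log2 -0.72 ± 0.30, adjusted p = 0.142). Angptl8 averaged 163.9 and 104.3 CPM in the same order, with control-diet liver 5 at 253.3 CPM among 4 others at 41.2 to 93.8 (log2 0.65 ± 0.47, adjusted p = 0.439). Gdf15 was at 24.98 CPM in Western-diet liver 1, the library that was also highest in Fgf21, and at 2.37 to 7.25 CPM in the other 4. Its groups overlapped (adjusted p = 0.604). Marker lists moved beside these differences: summed over 10 hepatocyte genes, Western-diet livers without NaKtide held 35740 to 41760 CPM and control-diet livers 44700 to 58290 CPM, and 8 macrophage genes summed to 220 to 441 CPM and 122 to 268 CPM. Summed over 5 cholangiocyte genes, the Western-diet livers held 27.7 to 104.3 CPM and the control-diet livers 12.1 to 26.2 CPM, and over 10 skeletal muscle genes 3.29 to 6.60 CPM and 7.82 to 647.6 CPM, in both cases without overlap. Their part in the results was not tested. Without the muscle-containing control-diet livers 2 and 4, Fgf21, Igfbp1, Enho and Igfbp2 were still called (adjusted p 0.0475, 0.0275, 0.0467 and 0.0128) and Fetub was not (0.077).

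**Figure D1:**
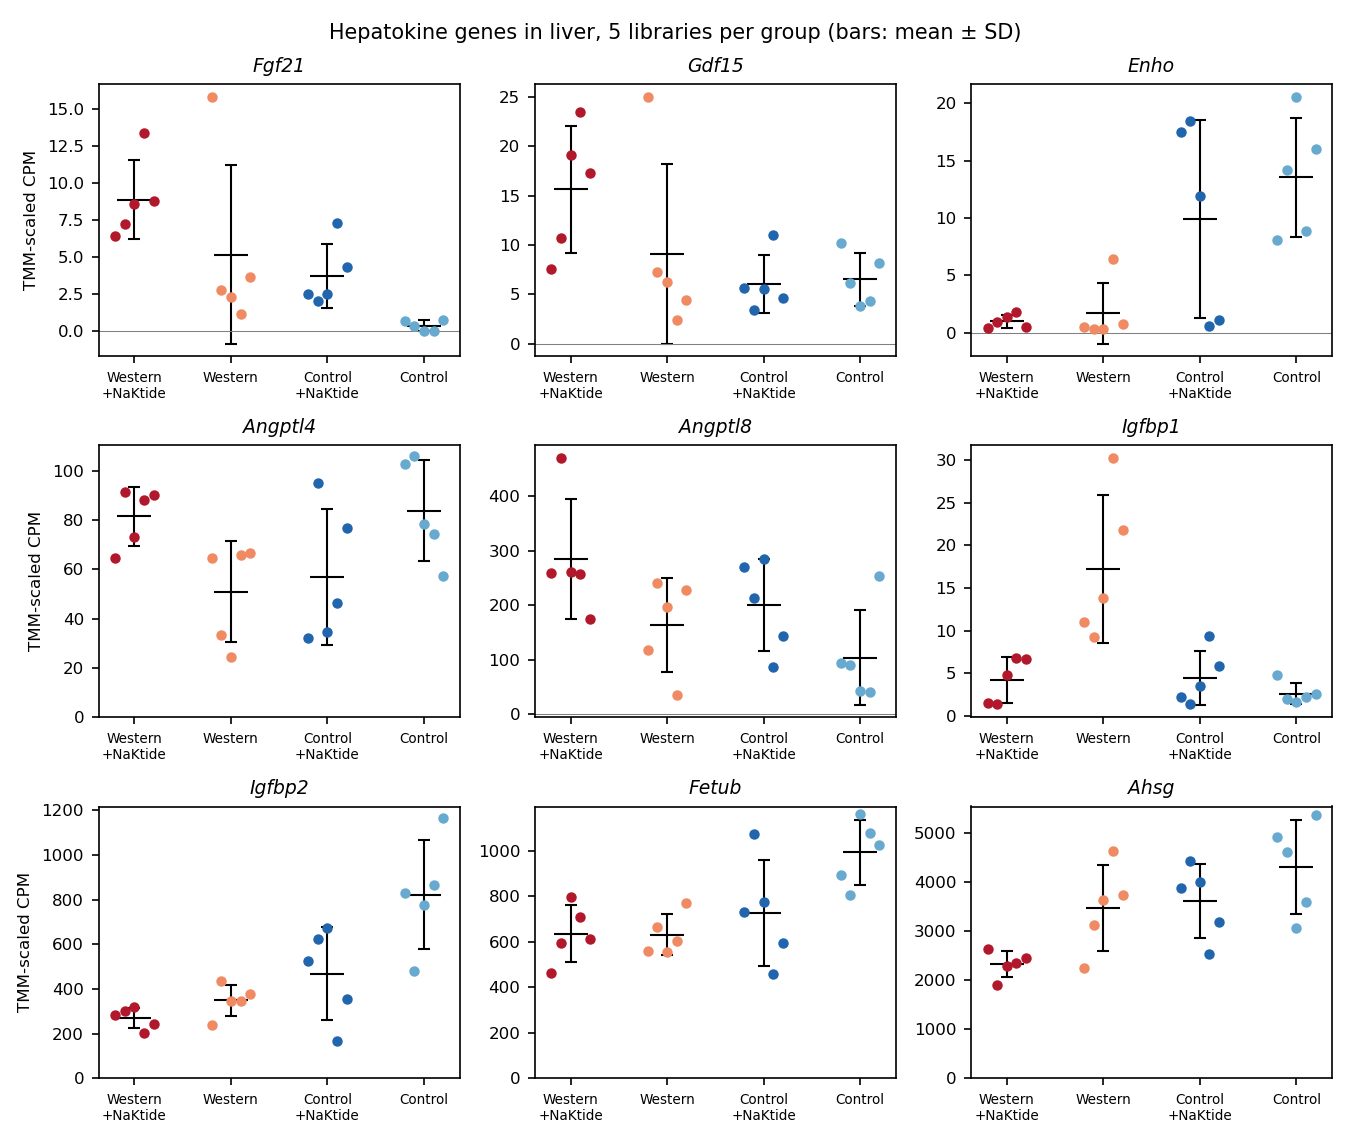
TMM-scaled CPM of the 9 genes in each of the 20 liver libraries; points are libraries, the long bar is the mean and the whiskers are ± SD of 5. Fgf21 is at 0 to 0.782 CPM on control diet without NaKtide and higher in the other 3 groups, while Igfbp1 averages 17.2 CPM on Western diet without NaKtide and 2.59 to 4.47 CPM in the other 3 groups.

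On the Western diet, Igfbp1 was lower in liver with NaKtide, the 1 gene of the 9 that was called, where 2.24% of all genes were called higher and 2.55% lower (4.79% in all). Igfbp1 was at 1.51, 1.37, 4.83, 6.84 and 6.64 CPM in Western-diet livers with NaKtide, all below the 9.22 CPM that was the lowest Western-diet liver without it. It fell by 2.11 on the log2 scale (SE 0.48, adjusted p = 0.0145), with means of 4.24 ± 2.67 CPM with NaKtide and 17.2 ± 8.7 CPM without. The call held in 18 of 18 alternatives, at log2 values of -2.35 to -1.79 and adjusted p of 0.00124 to 0.0457. Fetub averaged 635.1 CPM with NaKtide and 630.6 CPM without, a log2 difference of 0.01 ± 0.19. The median of the 9 genes was 0.01, against -0.02 for all genes.

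Fgf21 and Gdf15 on Western diet turned on 1 library. With NaKtide, Fgf21 was at 6.45, 7.23, 8.59, 13.4 and 8.76 CPM and Gdf15 at 7.55, 10.7, 19.1, 23.5 and 17.3 CPM. Without NaKtide, the first liver was above all of these in both genes (15.8 and 24.98 CPM), and the other 4 were below all of them in both. Over all libraries neither was called (Fgf21 log2 0.76 ± 0.51, adjusted p = 0.36; Gdf15 0.75 ± 0.46, adjusted p = 0.314). Without the first Western-diet liver, Fgf21 was higher with NaKtide by 1.81 (adjusted p = 0.00807) and Gdf15 by 1.58 (0.0111), and Ahsg was lower, at a log2 value of -0.70 (0.0228) in place of -0.58 ± 0.20 (0.0903). Leaving that library out also raised the share of all genes called to 13.6%. Over 18 alternatives the adjusted p ran from 0.00348 to 0.623 for Fgf21, 0.00197 to 0.574 for Gdf15 and 0.0127 to 0.246 for Ahsg. The same first library had the highest macrophage-list sum of its group, 441 CPM, where livers with NaKtide held 510 to 621 CPM and the other 4 without it 220 to 394 CPM; the part of macrophages in these values was not tested.

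Angptl4 on Western diet was at 64.8, 91.4, 73.0, 88.0 and 90.3 CPM with NaKtide and at 64.6, 33.3, 24.3, 65.8 and 66.8 CPM without. The groups touch only between 64.8 and 66.8 CPM, and the difference of 0.68 ± 0.30 was not called (adjusted p = 0.162). Angptl8 averaged 284.4 ± 110.2 CPM with NaKtide and 163.9 ± 85.8 CPM without and overlapped more widely (adjusted p = 0.3). Igfbp2 and Enho also missed the threshold, at log2 -0.37 ± 0.28 and -0.85 ± 1.04.

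On the control diet, Fgf21 was higher in liver with NaKtide, the 1 gene of the 9 that was called, where 1.14% of all genes were called higher and 0.408% lower (1.55% in all). Fgf21 was at 2.53, 2.03, 2.53, 7.29 and 4.33 CPM with NaKtide, each above the highest control-diet liver without it (0.782 CPM). The 5 livers without NaKtide held 9 Fgf21 counts together. Counts in other groups, among them the one with NaKtide, made the gene testable. The log2 difference was 3.21 ± 0.77 (adjusted p = 0.0366) and held in 8 of 18 alternatives (adjusted p 0.00111 to 0.348). It was lost without any 1 of control-diet livers 1 to 5 without NaKtide (adjusted p 0.0576 to 0.0831), without control-diet liver 4 with NaKtide (0.153) or without liver 5 with NaKtide (0.0908). It was also lost without the muscle-containing livers (2.74 ± 0.92, 0.145) and without Western-diet liver 4 and control-diet livers 4 and 5 with NaKtide together (2.53 ± 0.77, 0.348). Those last 2 livers, the highest in Fgf21, had adipocyte-list sums of 104.3 and 98.3 CPM, against 19 to 27 CPM in livers 1 to 3 of the group. This comparison shares its control-diet livers without NaKtide with the diet comparison. Igfbp2 (467.8 against 822.9 CPM, adjusted p = 0.142) and Fetub (726.4 against 992.2 CPM, 0.214) were lower with NaKtide without passing the threshold.

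Enho divided the control-diet livers with NaKtide. Livers 1, 2 and 3 held 17.45, 18.5 and 11.9 CPM, within the 8.08 to 20.55 CPM of livers without NaKtide. Livers 4 and 5 held 0.598 and 1.08 CPM, inside the range of the Western-diet livers with NaKtide, 0.412 to 1.78 CPM. These are the same 2 livers that stood apart in Fgf21, in Igfbp2 (166.0 and 353.1 CPM against 525.7 to 672.3 CPM in the other 3) and in the adipocyte-list sum. What sets them apart was not tested.

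The effect of NaKtide differed between diets for Igfbp1 alone among the 9 genes, while 2.07% of all genes had a called interaction above 0 and 2.93% one below 0 (5% in all). The interaction of Igfbp1 was -2.93 ± 0.71 on the log2 scale (adjusted p = 0.0272), since NaKtide went with 4.24 against 17.2 CPM on Western diet and with 4.47 against 2.59 CPM on control diet. It was called in 21 of 27 alternatives (adjusted p 0.00417 to 0.28). The call was lost without Western-diet liver 4 (adjusted p = 0.0515), Western-diet liver 2 with NaKtide (0.0509), or control-diet liver 4 (0.0713) or 5 (0.055) with NaKtide. It was also lost without the muscle-containing control-diet livers. Leaving out Western-diet liver 4 and control-diet livers 4 and 5 with NaKtide together, whose adipocyte-list sums lay nearer the other diet, gave -1.69 ± 0.68 (adjusted p = 0.28). Without NaKtide that sum averaged 125.1 CPM on Western diet and 30.5 CPM on control diet, so this setting selects libraries by a value that differs by diet. Angptl4 came next, with 1.24 ± 0.42 (adjusted p = 0.0716), lower with NaKtide on control diet (57.0 against 83.8 CPM) and higher with it on Western diet (81.5 against 50.9 CPM). Fgf21 had -2.46 ± 0.95 (adjusted p = 0.104).

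**Figure D2:**
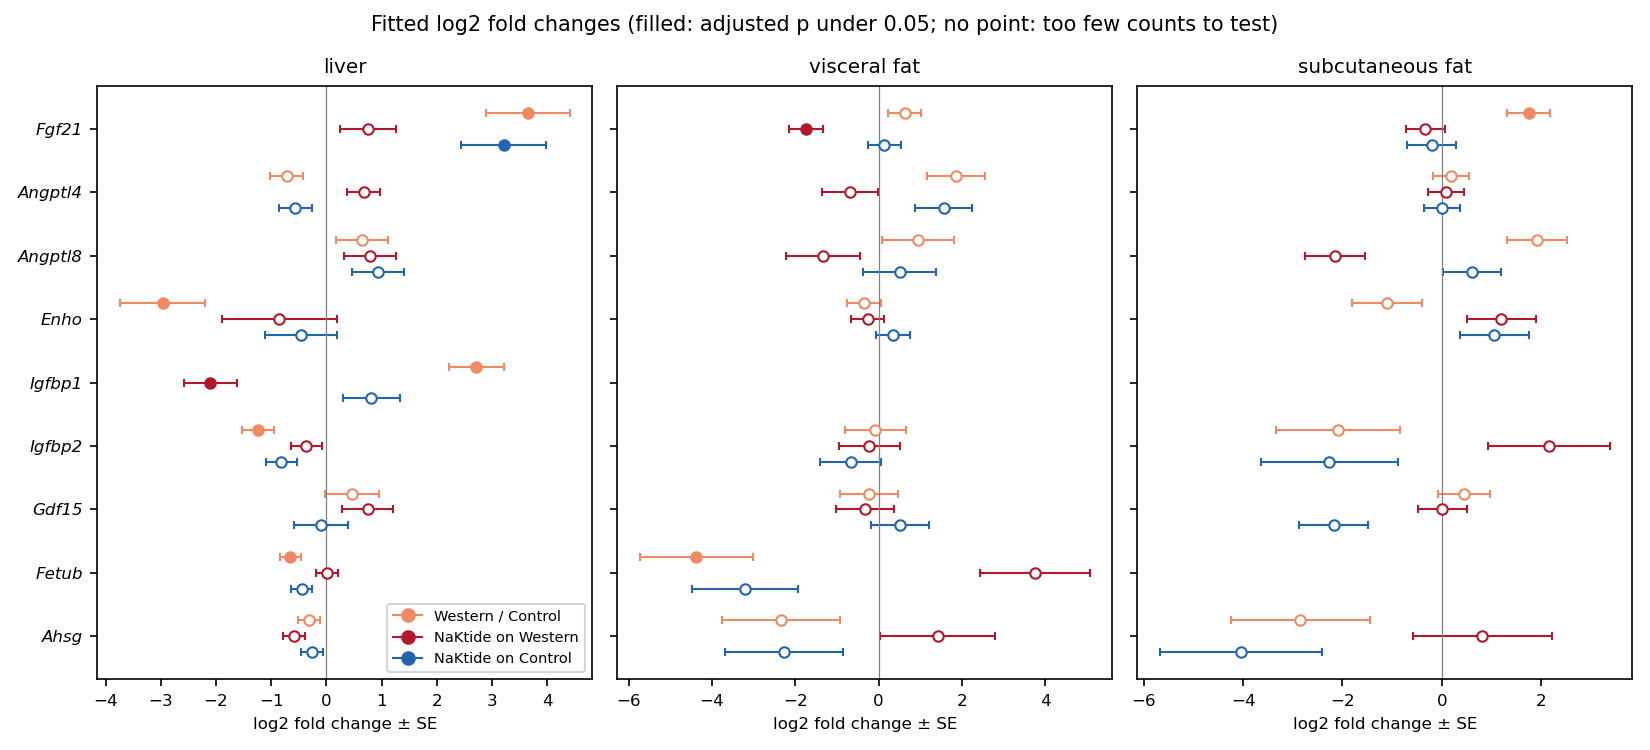
Log2 fold changes ± SE of the 9 genes in liver, visceral fat and subcutaneous fat for Western against control diet without NaKtide, NaKtide against none on Western diet, and NaKtide against none on control diet; filled points are called. In liver, Igfbp1 is called upward with the Western diet (2.72) and downward with NaKtide on it (-2.11), and Fgf21 is called upward with diet (3.65) and with NaKtide on control diet (3.21).

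Genes that act around these hormones were counted in 10 lists. In liver on Western diet without NaKtide, 11 of 15 targets of ChREBP, LXR and SREBP1 rose and 0 fell, with a median log2 fold change of 2.45 against 0.03 over all genes. Fasn, the fatty acid synthase, averaged 2303 ± 834 CPM on Western diet and 229.1 ± 66.5 CPM on control diet (log2 3.33 ± 0.41, adjusted p = 2.51e-05). NaKtide on control diet called 9 of the 15 higher (median 1.46), Fasn among them at 1553 against 229.1 CPM, and NaKtide on Western diet called 3 lower and 0 higher (median -0.75). In the interaction 11 of 15 were called lower and 0 higher.

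Of 12 tested genes of the integrated stress response, the pathway of ATF4, 3 rose with the Western diet: Atf3 (log2 1.99 ± 0.56, adjusted p = 0.0308), Atf5 (0.51 ± 0.13, 0.0138) and the mitochondrial folate enzyme Mthfd2 (1.86 ± 0.43, 0.00919). The list median was 0.05, close to that of all genes. With NaKtide, 0 of the 12 were called on either diet by edgeR, although 6 on Western diet and 3 on control diet had an unadjusted p under 0.05. Atf5 had a called interaction (-0.91 ± 0.18, adjusted p = 0.00823). Of 16 PPAR alpha targets, 0 rose and 2 fell with the Western diet: Creb3l3, a liver transcription factor that activates Fgf21 (157.9 against 276.6 CPM, adjusted p = 0.00286), and the thioesterase Acot1 (4.78 against 17.8 CPM, 0.021).

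Among 10 insulin and FoxO1 targets, only the glucose-releasing phosphatase G6pc was called with the Western diet (294.2 ± 161.2 against 60.75 ± 9.16 CPM, log2 2.27 ± 0.45, adjusted p = 0.00327). G6pc was also higher with NaKtide on control diet (239.7 against 60.75 CPM, adjusted p = 0.0279), and its interaction was -2.95 ± 0.63 (adjusted p = 0.0127), close in size to that of Igfbp1. In the IGF system, 2 of 10 tested genes rose with the Western diet, Igfbp3 (1.32 ± 0.40, adjusted p = 0.0409) and Igfbp7, and 1 fell, Igfals, which carries IGF complexes in blood (65.4 ± 8.8 against 153.3 ± 27.8 CPM, adjusted p = 8.8e-05). Of the 3 further genes of the type 3 cystatin family, relatives of the fetuins, both kininogen genes fell, Kng2 (log2 -0.63 ± 0.15, adjusted p = 0.0101) and Kng1 (-0.54 ± 0.14, 0.0208). None of the 5 tested receptors of FGF21 and GDF15 was called in liver in any of the 4 comparisons, by edgeR at adjusted p 0.05, and with an unadjusted p under 0.05 the counts were 0, 0, 1 and 1.

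In the lipoprotein lipase system, Lpl, the lipase itself, was higher with NaKtide on Western diet (75.7 ± 22.9 against 34.15 ± 7.70 CPM, adjusted p = 0.0317) and lower with it on control diet (11.35 ± 7.43 against 48.6 ± 14.4 CPM, log2 -2.12 ± 0.32, adjusted p = 0.0022). Its interaction was 3.27 ± 0.44 (adjusted p = 0.000402). Of the other hepatokines listed, Inhbe, which encodes activin E, rose with the Western diet (148.7 ± 74.3 against 62.1 ± 22.0 CPM, log2 1.26 ± 0.26, adjusted p = 0.00464), 1 of 16 tested. Of 13 clock genes, 1 was called with the Western diet (Per2, higher) and 4 with NaKtide on that diet (Tef and Dbp higher, Clock and Arntl lower), where 8.44% and 4.79% of all genes were called. Times of tissue collection were not used here. A list with 1 or 2 called genes of 10 to 16 lies near these shares, and nothing is read from its count.

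The genes whose levels went most closely with each hepatokine were ranked by Spearman correlation over the 20 liver libraries, among 8631 genes at a mean of 5 CPM or more. Fgf21 was nearest to Inhbe (0.93), Nt5c2 (0.93) and Lbh (0.90), Igfbp1 to Cdk7 (0.77), Ggct (0.71) and Dnase2b (0.71), and Gdf15 to Ankrd13a (0.85), Psmd8 (0.85) and Rer1 (0.83). Angptl4 was nearest to Pim3 (0.82), Polr2h (0.74) and Wwc1 (0.74), and Angptl8 to Lect2 (0.78), Eif1 (0.78) and Eefsec (0.75). Enho went with the cardiac myosin genes Myh7 (0.91) and Myh6 (0.88), and Igfbp2 to Uqcrh (0.95), Pigyl (0.93) and Gjb1 (0.91). Ahsg was nearest to the fibrinogen gene Fgg (0.96), the clotting factor gene F7 (0.95) and Tmem147 (0.94), and Fetub to the vitronectin gene Vtn (0.93), Gcat (0.91) and Sdc4 (0.91). These libraries share diet, NaKtide and depth, so the values describe the 20 libraries only.

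Levels per transcript length (the authors' FPKM) place the 9 genes across tissues. In liver, median FPKM over 20 libraries ran from Ahsg (2229), Fetub (549.6), Angptl8 (345.3) and Igfbp2 (294.9) through Angptl4 (32.4) to Gdf15 (5.27), Igfbp1 (4.76), Fgf21 (4.07) and Enho (1.89). The ranges of Gdf15 (1.87 to 19.4), Igfbp1 (1.33 to 29.0), Fgf21 (0 to 23.7) and Enho (0.375 to 23.96) overlap almost entirely. In visceral fat the order was Angptl4 (132.9), Angptl8 (29.7), Enho (5.84), Igfbp2 (4.50), Ahsg (1.67), Fgf21 (0.983), Fetub (0.965), Gdf15 (0.724) and Igfbp1 (0). In subcutaneous fat it was Angptl4 (107.6), Angptl8 (46.8), Enho (6.36), Fgf21 (1.37), Ahsg (0.312), Gdf15 (0.305), Fetub (0.242), Igfbp2 (0.166) and Igfbp1 (0). These orders pool 4 groups and do not hold in each. In subcutaneous fat on Western diet without NaKtide, mean FPKM was 131.9 ± 63.0 for Angptl4 and 144.4 ± 77.7 for Angptl8, and the other 3 subcutaneous groups had Angptl4 higher on average. In liver on control diet without NaKtide, Igfbp2 averaged 664.9 ± 201.0 FPKM and Angptl8 180.2 ± 151.0, whereas on Western diet with NaKtide they averaged 218.6 ± 38.6 and 491.8 ± 188.7 FPKM. Members below Angptl8 in subcutaneous fat span ranges that overlap with their neighbours.

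**Figure D3:**
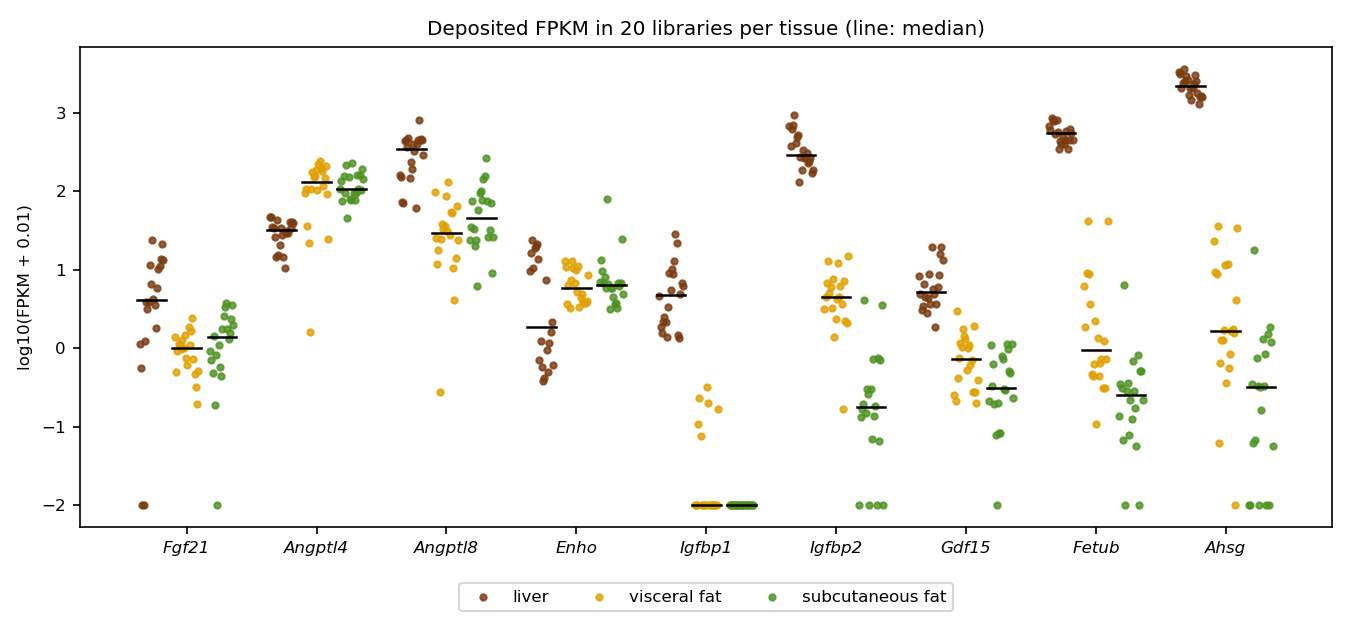
Deposited FPKM of the 9 genes in 20 libraries each of liver, visceral fat and subcutaneous fat, as log10 of FPKM plus 0.01; each point is a library and the line is the median. Ahsg, Fetub and Igfbp2 are separated between liver and fat, the median of Angptl4 is higher in fat, and Igfbp1 is at 0 in all 20 subcutaneous libraries.

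On control diet without NaKtide, 6 of the 9 genes were higher in liver than in the mean of both fats and 1 was lower, where 24.4% of 18175 genes were higher and 37.8% lower (62.2% called). The log2 differences were 8.58 ± 1.10 for Ahsg (adjusted p = 2.05e-09), 8.09 ± 0.70 for Igfbp2, 7.41 ± 0.81 for Fetub, 2.99 ± 0.49 for Gdf15 and 2.39 ± 0.58 for Angptl8 (adjusted p = 0.000337). Angptl4 was lower in liver, at -1.03 ± 0.44 (adjusted p = 0.0409), a call lost without any 1 of 9 libraries and held in 9 of 21 alternatives (adjusted p 0.00086 to 0.163). Igfbp1 had 59 counts in the 5 control-diet livers and 0 in the 5 subcutaneous libraries, at least 23.6-fold higher in liver when set against 3 counts over the group. On Western diet it had 489 and 0 counts, at least 224-fold higher. Over all 20 visceral libraries Igfbp1 had 14 counts, 0 in 14 of them. For Fgf21 and Enho the difference of liver from fat was not called (log2 -0.51 ± 0.56 and 0.95 ± 0.56).

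Single libraries moved some of these sizes by more than 1.5 times. Without subcutaneous library 5 on control diet, which held 48.0 CPM of Ahsg, 14.98 of Fetub, 9.24 of Igfbp2 and 482 of Alb where the other 4 held 0 to 0.914 CPM of Ahsg, the differences from liver were 11.25 for Ahsg, 8.93 for Fetub and 9.62 for Igfbp2. Gdf15 became 3.59 without visceral control-diet library 3, and Angptl8 became 1.76 without control-diet liver 5. Visceral exceeded subcutaneous fat in 2 of the 9 genes, where 22.7% of all genes were higher and 8.85% lower (31.6% called). They were Igfbp2 (2.82 ± 0.82, adjusted p = 0.00784) and Fetub (3.24 ± 0.95, 0.0079). Without subcutaneous library 5 these were 5.67 and 6.09, and Fetub was not called without visceral library 4 (2.16, adjusted p = 0.0749). Leaving out the tract-rich and the muscle-containing libraries ended both calls, at 2.08 for Igfbp2 (adjusted p = 0.377, range over alternatives 0.00026 to 0.377) and 1.47 for Fetub (0.522, range 0.000481 to 0.522).

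In subcutaneous fat Fgf21 rose with the Western diet, 1 of 7 tested members, where 2.21% of all genes were called higher and 3.4% lower (5.61% in all). Fgf21 was at 1.97, 2.94, 3.73, 4.31 and 1.92 CPM on Western diet without NaKtide and at 1.04, 0.803, 0.549, 1.58 and 0.205 CPM on control diet without NaKtide. The groups did not overlap. The control-diet group held 26 Fgf21 counts and the Western-diet group 130, and the counts on Western diet made the gene testable. The log2 difference was 1.75 ± 0.43 (adjusted p = 0.0246). It was called in 11 of 15 alternatives (adjusted p 0.00465 to 0.0799) and lost without Western-diet library 3 or 4 or control-diet library 3 or 5. The skeletal muscle list summed to 18 to 164 CPM on Western diet and 6444 to 48010 CPM on control diet in these libraries, and its part in the result was not tested. With NaKtide the groups also did not overlap by diet, at 1.48 to 3.88 CPM on Western diet and 0 to 1.22 CPM on control diet. Between those groups with NaKtide, edgeR called 0 of 15226 genes, so Fgf21 was not called there.

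Angptl8 in subcutaneous fat was at 26.95, 32.2, 71.65, 9.06 and 26.6 CPM on Western diet with NaKtide and at 80.45, 148.9, 160.8, 274.9 and 76.25 CPM on Western diet without it. All 5 libraries with NaKtide lay below all 5 without. On control diet it was at 24.9, 6.42, 59.2, 98.8 and 105.5 CPM with NaKtide and 25.2, 36.4, 80.6, 33.1 and 20.9 CPM without. Neither the diet difference (1.92 ± 0.60, adjusted p = 0.0645) nor that of NaKtide on Western diet (-2.15 ± 0.60, adjusted p = 0.175) passed the threshold. DESeq2 called both (adjusted p = 0.0146 and 0.0266; ranges over alternatives 0.0115 to 0.173 and 0.0266 to 0.473). With NaKtide, edgeR called 0% of all genes in subcutaneous fat on either diet and in the interaction. Of the 7 members 0 were called there, with 1, 2 and 4 at an unadjusted p under 0.05, and DESeq2 called 1, 0 and 0.

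Enho and Gdf15 in subcutaneous fat moved with single libraries or groups. Enho was at 7.25 to 10.3 CPM on Western diet with NaKtide in 4 libraries and 35.9 CPM in the other, 4.80 to 8.68 CPM on Western diet without, 4.87 to 9.78 CPM on control diet with NaKtide in 4 libraries and 121.3 CPM in the other, and 9.85 to 20.1 CPM on control diet without. Without NaKtide, all 5 Western-diet libraries lay below all 5 control-diet ones in Enho, and the log2 difference of -1.11 ± 0.70 was not called (adjusted p = 0.342); with only the groups compared it was (0.00857, range over alternatives 0.00857 to 0.484). The library at 121.3 CPM also held the most skeletal muscle transcript of the tissue, 202100 CPM summed over 10 genes. Without NaKtide, these genes summed to 18 to 164 CPM on Western diet and 6444 to 48010 CPM on control diet. The part of muscle in the Enho values was not tested. Gdf15 was at 0 to 0.408 CPM in all 5 control-diet libraries with NaKtide, each below the 0.410 to 2.41 CPM of those without, but the difference of -2.17 ± 0.70 did not pass (adjusted p = 0.792, unadjusted p = 0.0055). The 5 libraries with NaKtide held 6 Gdf15 counts in all.

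In visceral fat, Fgf21 was lowest in the libraries labelled Western diet with NaKtide. They held 0.900, 0.563, 0.377, 0.232 and 0.611 CPM, against 0.724, 2.25, 1.32, 2.02 and 2.96 CPM in those labelled Western diet without NaKtide. In all, these groups held only 17 and 85 Fgf21 counts. Control-diet libraries held 0.911 to 1.82 CPM with NaKtide and 0.595 to 1.70 CPM without. Apart from the first library of each, the Western-diet groups did not overlap. Fgf21 fell by 1.74 on the log2 scale with NaKtide on Western diet (SE 0.41, adjusted p = 0.0115), 1 of 8 members called where 6.23% of all genes were higher and 6.95% lower (13.2% called). Its interaction was -1.88 ± 0.57 (adjusted p = 0.0196), where 18.8% of all genes had one above 0 and 13.4% one below (32.2% called). Without the 6 libraries rich in epididymis and testis transcripts the values were -1.80 ± 0.61 (adjusted p = 0.0557, range 0.00724 to 0.0688) and -2.07 ± 0.92 (0.122, range 0.0119 to 0.122), so the sizes stayed and the calls did not.

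Angptl4 in visceral fat was at 498.3, 636.7, 871.5, 399.6 and 103.9 CPM on Western diet with NaKtide and 436.1, 933.1, 1044, 834.3 and 774.0 CPM on Western diet without. It was at 446.1, 728.2, 651.1, 673.0 and 783.5 CPM on control diet with NaKtide and 397.9, 447.8, 158.9, 93.3 and 6.16 CPM on control diet without. The last 3 of these are tract-rich libraries, and the library at 6.16 CPM had an adipocyte-list sum of 1121 CPM, the lowest of the tissue. The diet difference was 1.86 ± 0.69 (adjusted p = 0.055), and without the 6 tract-rich libraries 0.93 ± 0.33 (0.0805; range 0.0182 to 0.127). It was called without control-diet library 1 (0.0414), 2 (0.0326) or 5 (0.0365), or with DESeq2 (0.0182). Angptl8 was at 0.268 CPM in that library and 13.7 to 109.5 CPM in the other 4 of its group, and its 4 groups overlapped.

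**Figure D4:**
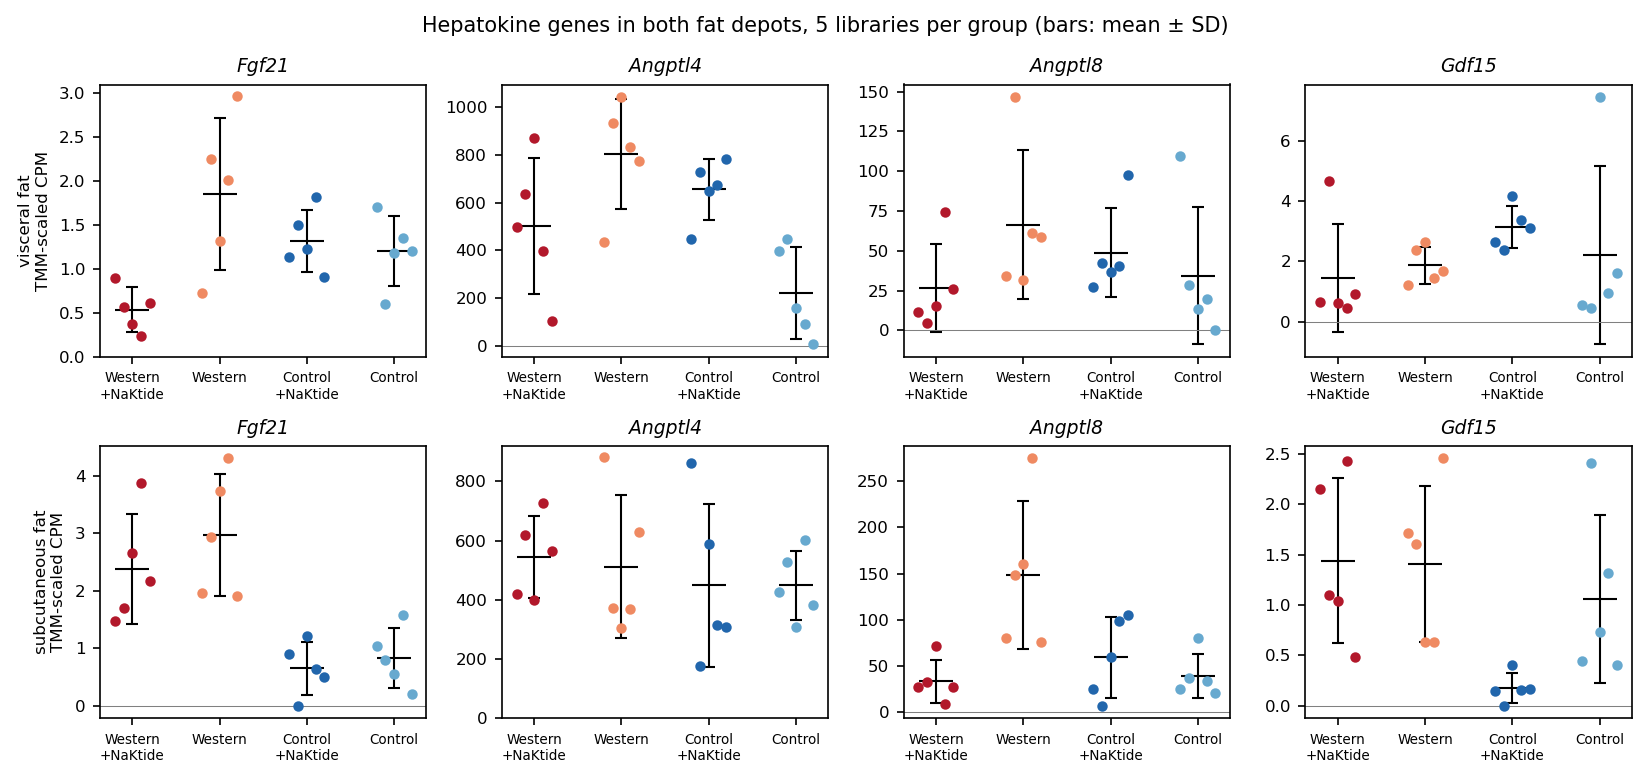
TMM-scaled CPM of Fgf21, Angptl4, Angptl8 and Gdf15 in visceral fat (top) and subcutaneous fat (bottom), 5 libraries per group, with mean ± SD. Subcutaneous Fgf21 separates by diet, subcutaneous Angptl8 on Western diet is at 9.06 to 71.65 CPM with NaKtide and 76.25 to 274.9 CPM without, and visceral Gdf15 has 1 high library in each of 2 groups (4.65 and 7.45 CPM).

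Gdf15 in visceral fat depended on the tract-rich libraries. It was at 0.643, 4.65, 0.629, 0.464 and 0.917 CPM on Western diet with NaKtide, 1.21, 2.38, 2.64, 1.44 and 1.69 CPM on Western diet without, 2.65, 2.38, 4.15, 3.38 and 3.12 CPM on control diet with NaKtide, and 0.567, 0.476, 7.45, 0.970 and 1.61 CPM on control diet without. Both high libraries, at 4.65 and 7.45 CPM, are tract-rich. Over all libraries none of its comparisons was called. Without the 6 tract-rich libraries, Gdf15 was lower with NaKtide on Western diet (-1.64 ± 0.39, adjusted p = 0.0114, range over alternatives 0.0114 to 0.945) and higher with NaKtide on control diet (2.61 ± 0.49, 0.00599, range 0.00599 to 0.785), with an interaction of -4.25 ± 0.63 (0.000405, range 0.000405 to 0.715). The diet difference was 1.82 ± 0.47 without them (0.0215, range 0.0215 to 0.952) and -0.23 ± 0.69 with them. That setting was chosen after the data were seen. It leaves 3 and 5 libraries on Western diet with and without NaKtide, and 4 and 2 on control diet with and without it. Over all genes, the number called there went from 2270 to 3536 for NaKtide on Western diet and from 1233 to 1878 on control diet. For Western against control diet without NaKtide it went from 4287 to 2466.

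Among the receptor and stress genes, Ret and Atf3 differed most between the visceral groups. Ret, the co-receptor of GDF15, averaged 14.15 ± 6.43 CPM on Western diet with NaKtide, 37.4 ± 10.2 CPM on Western diet without, 55.4 ± 15.8 CPM on control diet with NaKtide and 15.8 ± 8.6 CPM on control diet without. Its NaKtide difference was -1.40 ± 0.38 on Western diet (adjusted p = 0.022) and 1.80 ± 0.38 on control diet (0.0068), with an interaction of -3.21 ± 0.53 (0.000365). Atf3, a stress-induced transcription factor, averaged 7.03, 44.3, 47.3 and 4.39 CPM in the same 4 groups, with an interaction of -6.08 ± 0.59 (adjusted p = 3.7e-06). Of the 5 tested receptor genes, 3 had a called interaction (Fgfr2 and Fgfr3 higher, Ret lower), against the 32.2% of all genes. The macrophage-list sums given above are also low in the first and last of these groups and high in the other 2, and their part was not tested.

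Fetub and Ahsg in visceral fat ranged over orders of magnitude within groups. Fetub was at 0.771, 3.10, 0.755, 1.86 and 105.2 CPM on Western diet with NaKtide, 0.241, 3.38, 1.10, 1.63 and 1.80 CPM on Western diet without, 8.97, 1.13, 1.08, 1.56 and 5.59 CPM on control diet with NaKtide, and 15.7, 4.64, 23.9, 106.7 and 20.2 CPM on control diet without. Every control-diet library without NaKtide lay above every Western-diet library without it, and Fetub fell by 4.38 on the log2 scale (SE 1.36, adjusted p = 0.0305), the only 1 of 8 members called where 10.5% of all genes were higher and 14.3% lower (24.9% called). Its interaction was 6.96 ± 1.84 (adjusted p = 0.0103). The diet call was lost without visceral control-diet library 3, 4 or Western-diet library 1, 3, 4 or 5 (adjusted p 0.0527 to 0.0902; -3.29 without control-diet library 4), in a range of 0.000869 to 0.0902. Without all 6 tract-rich libraries it was called at -2.62 ± 0.77 (0.0394). The interaction was 3.20 (0.0622) without the Western-diet library with NaKtide at 105.2 CPM, 5.87 (0.0253) without control-diet library 4, and 1.53 ± 1.15 (0.369) without all 6 tract-rich libraries, the highest of a range that began at 8.85e-05. On control diet, NaKtide called 0 of the 8 members in visceral fat by edgeR, where 5.26% of genes were higher and 1.9% lower (7.15% called). Of the 8, 2 had an unadjusted p under 0.05 and DESeq2 called 1.

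Both fetuins were read beside albumin (Alb), the main protein that hepatocytes secrete. In liver there were 21.9 Ahsg counts per 100 Alb counts (13.95 to 33.6 by library), against 10.7 in visceral fat (0 to 33.3) and 6.07 in subcutaneous fat (0 to 42.9). Both fat ranges overlap the liver range. Subcutaneous library 5 on control diet without NaKtide held 234 of the 401 subcutaneous Ahsg counts, and without it the value was 3.93. Fetub had 4.55 counts per 100 Alb counts in liver, 2.37 in the 14 visceral libraries under 1000 CPM of tract genes and 12.4 in the 6 above. The visceral library numbered 5 on control diet without NaKtide held 151 Fetub counts with 3 Alb counts and 1 Ahsg count. Alb itself ranged from 0.402 to 969 CPM in visceral fat, from 4.49 to 482 CPM in subcutaneous fat and from 12520 CPM upward in liver. The part of liver RNA and of tract RNA in these counts was not tested.

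**Figure D5:**
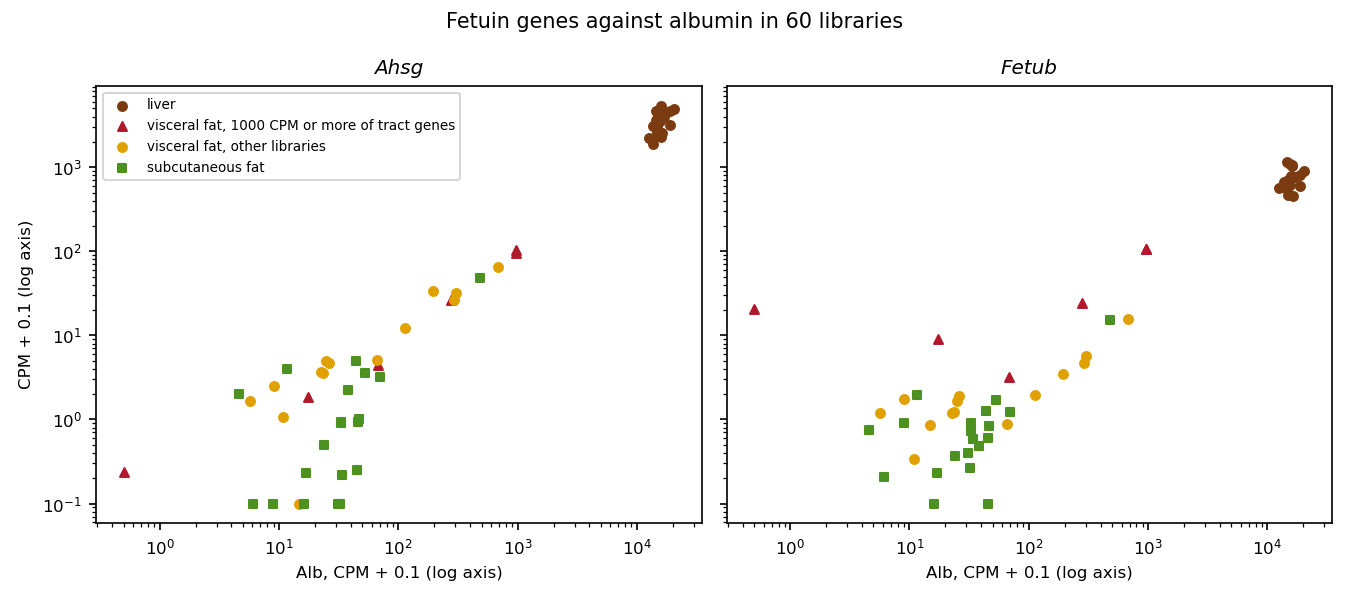
Ahsg (left) and Fetub (right) against Alb in the 60 libraries, each as CPM plus 0.1 on log axes; triangles mark the 6 visceral libraries with 1000 CPM or more of epididymis and testis genes. Liver libraries lie apart at 12520 CPM of Alb and more, fat libraries reach up to 969 CPM, and 1 tract-rich library holds 20.2 CPM of Fetub at 0.402 CPM of Alb.

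The diet effect was set against that of the other tissues in 1 model of all 60 libraries. Between liver and visceral fat it differed for 3 of the 9 genes, where 7.22% of all genes had a called difference above 0 and 3.18% one below 0 (10.4% in all). For Fgf21, the log2 diet effect in liver minus that in visceral fat was 3.07 ± 0.81 (adjusted p = 0.0118). For Angptl4 it was -2.60 ± 0.70 (0.0139), and the effects within each tissue were -0.72 in liver and 1.86 in visceral fat. For Fetub it was 3.72 ± 1.25 (0.0458), since Fetub fell less in liver (-0.65) than in visceral fat (-4.38). Fgf21 was not called without Western-diet liver 1 (2.04 ± 0.74, adjusted p = 0.0735, range over alternatives 0.00648 to 0.235). Angptl4 kept its call in all 20 fits that left out 1 library and lost it with only the groups compared (-2.62, 0.0793) and without the tract-rich and muscle-containing libraries (-1.57, 0.173), in a range of 0.00386 to 0.173. Fetub kept its call in 3 of the 20 fits that left out 1 library and was at 2.63 (0.171, range 0.0157 to 0.39) without visceral control-diet library 4. Between liver and subcutaneous fat 0 of the 9 genes were called by edgeR or DESeq2, 1 had an unadjusted p under 0.05, and 0.594% of all genes were called higher and 0.105% lower (0.699% in all). The Igfbp1 diet effect could not be compared there, since all subcutaneous libraries were at 0 counts (3 counts over a group would be 0.0762 to 0.1045 CPM).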

How the data were processed

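Per the labels, RNA of 60 mouse samples was made into stranded mRNA libraries read in pairs of 50 bp. Trimmomatic 0.38, HISAT2 2.1.0, DESeq2 1.20.0 and GRCm38 are named in the submitters' processing notes; the counting tool, its annotation and its use of strand were not found in the labels and are not given in the sources used. The authors deposited raw counts per gene and FPKM (fragments by transcript length and depth); FPKM was used here only for levels between genes and tissues. Symbols were matched for 54079 of 54232 IDs, and no column was left unmapped.

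From the counts, edgeR 4.0.16 (R 4.3.3) was run with filterByExpr, TMM scaling and the quasi-likelihood test, in 1 model of 20 libraries per tissue and 1 of all 60, with Benjamini-Hochberg adjustment over all genes of a model at 0.05. The 16 comparisons were recomputed under 6 other settings chosen at the start and 5 chosen after the data were seen. The scripts were tested on simulated data, with the same spread in each tissue and only Western against control diet compared. That spread was close to the one fitted in liver, a coefficient of variation between libraries of 0.25. The fitted value was 0.35 in subcutaneous fat, 0.67 in visceral fat and 0.49 over all libraries. Interactions and comparisons between tissues were not simulated. The members and gene lists were chosen with earlier results of these data known. Named are all 9 members, the called genes of each list with the smallest p (up to 3 each way), and the 3 liver genes nearest each member. No 2 libraries were identical. Some listed or nearest genes are not reported here. Whether replicates are separate mice in every tissue is not in the labels, although the design text speaks of 5 mice per group. A floor of 3 counts covers counting error only, since reads without molecular identifiers are not independent molecules.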

Additional observations from a re-analysis of the deposited data

Results flagged for a closer look

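Of 96 groups of 5 libraries examined, 24 held a library far from the rest by Dixon's test (gap over range above 0.71). The rate of about 1 in 20 holds for independent groups of normally distributed values. Here CPM were used without a log scale, the groups share libraries across genes, and all 24 were the highest of their group. The count is therefore not set against chance. In liver the flagged libraries were the Western-diet library without NaKtide at 15.8 CPM of Fgf21 and 24.98 CPM of Gdf15, which is the same library, the one at 6.427 CPM of Enho in that group, the control-diet library with NaKtide at 10.99 CPM of Gdf15 and the control-diet library without NaKtide at 253.3 CPM of Angptl8.

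In visceral fat, high libraries on Western diet with NaKtide held 14.06 CPM of Enho, 4.648 of Gdf15, 105.2 of Fetub and 95.68 of Ahsg. On Western diet without NaKtide they held 146.7 CPM of Angptl8, 18.03 of Enho and 33.8 of Ahsg. On control diet with NaKtide they held 97.45 CPM of Angptl8 and 32.01 of Ahsg, and without NaKtide 109.5 CPM of Angptl8, 7.448 of Gdf15 and 106.7 of Fetub.

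In subcutaneous fat, Enho stood apart at 35.92 CPM on Western diet with NaKtide and 121.3 CPM on control diet with NaKtide. Igfbp2 did so at 7.604 CPM on Western diet with NaKtide, 1.601 CPM on Western diet without it and 9.235 CPM on control diet without it. In the last group Angptl8 (80.64 CPM) and Ahsg (48.02 CPM) each had a high library as well.

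Differences between groups in the size of an effect were called for 6 results. Over all genes, the interaction was called for 5% in liver and 32.2% in visceral fat. The difference in diet effect between liver and visceral fat was called for 10.4%. The effect of NaKtide differed between diets for Igfbp1 in liver (-2.925 on the log2 scale) and, in visceral fat, for Fgf21 (-1.8794) and Fetub (6.9615). The effect of diet in liver differed from that in visceral fat for Fgf21 (3.0678), Angptl4 (-2.6017) and Fetub (3.7186).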

How the results depend on the processing

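Of the member values recomputed, none changed its call with RLE size factors, and of 1785 that left out 1 library 1707 were as before, 58 lost and 20 gained the call. Numbers of members called, as before and then in each setting, were as follows. In liver, NaKtide on Western diet had 1, and 4 without the first Western-diet libraries with and without NaKtide. NaKtide on control diet had 1, and 0 with a replicate block, without the muscle-containing libraries or without those with an adipocyte-list sum nearer the other diet. The interaction had 1, 2 with DESeq2, 3 without those first libraries, and 0 without the muscle-containing libraries or the adipocyte-discordant ones. In subcutaneous fat, diet had 1, 2 with DESeq2 and 3 with only the groups compared, and NaKtide on Western diet 0 and 1 with DESeq2. In visceral fat, diet had 1, 0 with no low-count filter or with the block, and 2 with DESeq2 or without the tract-rich libraries. NaKtide on Western diet had 1, 0 without the filter, and 2 with DESeq2. With only the groups compared it had 0, and there Fgf21 had too few counts to be tested. NaKtide on control diet had 0, and 1 with DESeq2 or without the tract-rich libraries. The interaction had 2, 1 without the filter, with the block or without the tract-rich libraries, and 3 with DESeq2. Visceral against subcutaneous fat had 2, and 0 with only the groups compared or without tract-rich and muscle-containing libraries. The liver minus visceral diet effect had 3, and 1 and 0 in those settings. The visceral Gdf15 diet difference reversed to 1.82 without the tract-rich libraries. The causes were not tested.

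Leaving out 1 library at a time gave these lowest and highest numbers of members called. In liver, diet had 3 to 5 and the interaction 0 to 3. NaKtide in liver had 1 to 4 on Western diet and 0 to 1 on control diet. Subcutaneous diet had 0 to 1 and the other subcutaneous comparisons 0 to 0. Visceral diet had 0 to 2 and the visceral interaction 1 to 3. NaKtide in visceral fat had 1 to 2 on Western diet and 0 to 0 on control diet. Liver against fat had 6 to 7, and visceral against subcutaneous fat 1 to 3. The diet effects of liver minus subcutaneous fat had 0 to 0, and those of liver minus visceral fat 1 to 4. The 4 for NaKtide on Western diet in liver came without Western-diet liver 1. In that fit 13.6% of all genes were called in place of 4.79%, and in its interaction 15.4% in place of 5%. Shares over all genes in the other fits are not given here.

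Over all genes, the number called moved by more than 1.5 times in several settings. In liver it was 1097 for diet and 656 to 693 in those settings, 622 and 321 to 3577 for NaKtide on Western diet, 201 and 12 to 423 on control diet, and 649 and 117 to 3678 for the interaction. The highest values for NaKtide on Western diet and the interaction came without the first Western-diet livers with and without NaKtide. In subcutaneous fat it was 854 and 561 to 2104 for diet, 0 and 158 to 301 for NaKtide on Western diet, and 0 and 56 for the interaction. In visceral fat it was 4287 and 1936 to 2671 for diet, 2270 and 985 to 4330 for NaKtide on Western diet, and 1233 and 655 to 2579 on control diet. Between tissues it was 5735 and 134 to 310 for visceral against subcutaneous fat, 127 and 56 to 598 for liver minus subcutaneous and 1891 and 521 to 1098 for liver minus visceral diet effects. In the liver interaction, 41.45% of called genes were higher with TMM and 52.3% with RLE. Same-numbered libraries of different groups had median correlations of -0.10 in liver, 0.02 in subcutaneous and -0.21 in visceral fat (-0.71 to 0.78 there). The block is therefore given here alone. Between tissues, libraries of the same group and number had medians of -0.01 (liver and subcutaneous), 0.03 (liver and visceral) and -0.06 (both fats). These values do not settle whether the tissues share mice. Depth limits several values, among them the following. Fgf21 had 9 counts in the 5 control-diet livers without NaKtide and 17 in the 5 visceral libraries on Western diet with NaKtide. Enho had 49 counts in the 5 Western-diet livers without NaKtide, 38 of them in liver 4. Gdf15 had 6 counts in the 5 subcutaneous libraries on control diet with NaKtide. Igfbp1 had 14 counts in 20 visceral libraries.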
